A study of Rattus norvegicus with 20 samples.

Results

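Chlorogenic acid (CGA) was the polyphenol of coffee beans in a feeding study of healthy rats, and the comparison described here set the 5 CSAA+CGA rats against the 5 CSAA rats. The CSAA+CGA rats ate a choline-sufficient, amino acid-defined diet (CSAA) with 1.9 g of CGA per kg of diet, and the CSAA rats ate the same diet with nothing added. All were wild-type male Fischer 344 rats aged 8 weeks that were fed for 20 days. Gene expression was measured by RNA sequencing of total RNA from whole blood, with 1 library per rat. The 10 libraries were chosen by their diet labels from 20 in the series. The other diets carried resveratrol (RSV) or pterostilbene (PTS). Genes entered the comparison if at least 15 of 19 libraries held 2 or more reads, after removal of the library of CSAA+RSV Rat4, and 16734 of 32882 genes did so. Whole blood is a mixture of cell types, so a level here is that of the mixture.

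CGA is an ester of caffeic acid and quinic acid. It is cleaved by esterases in the gut, and the freed phenolic acids are methylated, sulfated or glucuronidated before they circulate. In cell and animal work, CGA and its products have been linked to the antioxidant program run by the transcription factor Nrf2, to AMPK-driven energy metabolism and to lower inflammatory signaling. Whole blood RNA comes from maturing red cells, which carry hemoglobin messages, and from platelets and leukocytes.

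Total counts were 32111022 to 36743103 in the CSAA+CGA libraries (median 35481641), against 27132523 to 32875802 in the CSAA libraries (median 31577284), a difference with an exact two-sided permutation p of 0.0317. With 5 rats in each group the smallest p of that test is 0.00794. Genes with at least 1 count numbered 20389 to 28014 in CSAA+CGA rats and 19600 to 25104 in CSAA rats (exact permutation p = 0.690). Rat5 had the most in both diets. Blood markers were present in every library: hemoglobin genes held 11.9 ± 3.79% of the counts with CGA and 13.6 ± 2.19% without it (SD, n = 5 each). In a principal component analysis of the 10 rats, the component with the most variance carried 39.4% of it, and only 0.342% of that component lay between the diets (exact permutation p = 0.857). CSAA+CGA Rat5 and CSAA Rat5 were the highest on it. Correlations of log2 expression across genes were 0.952 to 0.986 between rats of different diets, 0.953 to 0.987 among CSAA+CGA rats and 0.957 to 0.981 among CSAA rats. Their medians were 0.980, 0.979 and 0.978 in that order.

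No gene passed the test. In edgeR's quasi-likelihood test with Benjamini-Hochberg adjustment, 0 of 16734 genes (0%) had an adjusted p under 0.05, and the lowest adjusted p was 0.99986. Before adjustment, 107 genes were below 0.05 (0.639%), of which 55 had a higher level with CGA (0.329%) and 52 a lower one (0.311%). DESeq2 also called 0, and 98 genes were below 0.05 before adjustment. With limma these numbers were 0 and 743. The log2 fold change of CSAA+CGA over CSAA had a median of -0.01 over all genes, with 8097 genes above 0 and 8637 below. It was over 1 in size for 202 genes, of which 51 had a mean of at least 1 CPM, the counts scaled to a common library size after TMM normalization. In 26 genes every CSAA+CGA rat was above every CSAA rat (0.155%), and in 14 every CSAA+CGA rat was below (0.0837%).

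**Figure D1:**
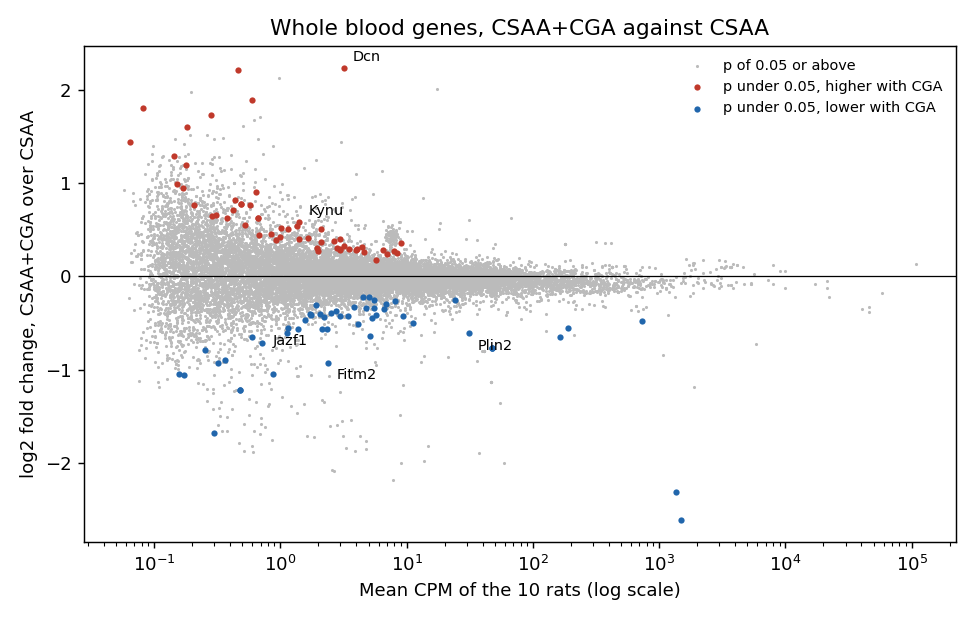
Log2 fold change of CSAA+CGA over CSAA (vertical axis) against the mean CPM of the 10 rats (horizontal axis, log scale) for 16734 genes, each point a gene, with genes at an unadjusted edgeR p under 0.05 in red (55 higher with CGA) and blue (52 lower). The cloud is centered near 0 at all levels and widens toward low CPM, and few colored genes lie above 10 CPM.

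How large a change the comparison could have hidden depended on the level of the gene. The intervals come from the fit of 19 libraries, so their spread also draws on the RSV and PTS rats. The 95% interval of the log2 fold change lay within -1 and 1, a 2-fold change either way, for 75.6% of the genes tested, and within 1.5-fold for 54.4%. The median distance from the estimate to either end of the interval was 1.31 below 0.3 CPM, where 4.47% of genes had an interval within 2-fold, and 0.29 from 10 to 100 CPM, where 98.4% did. Above 100 CPM that distance was 0.43, wider than in the range just below. For most genes above 3 CPM, a 2-fold difference between the diet means was therefore outside the interval, while for most genes below 0.3 CPM the interval left room for it.

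**Figure D2:**
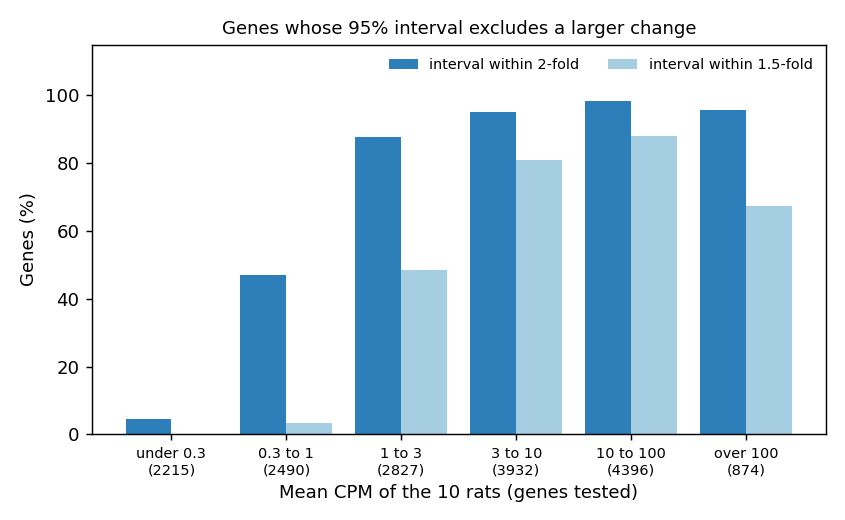
Percent of genes (vertical axis) whose 95% interval for CSAA+CGA over CSAA lies within 2-fold (dark bars) or 1.5-fold (light bars), by mean CPM of the 10 rats (horizontal axis, number of genes in brackets). The share within 2-fold is 4.47% below 0.3 CPM and 98.4% from 10 to 100 CPM.

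The genes described first come from the 12 in each direction with the lowest unadjusted p. The choice was among genes with a usual symbol and a mean of at least 1 CPM. It left out genes without a usual symbol, such as those with only a clone name, which made up 36 of the 107 below 0.05. The genes described were picked by p, so their p only restates that choice, and none passed the adjusted threshold. Their levels were low: the means of the 24 genes were under 10 CPM.

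The 12 genes higher with CGA had varied roles. Kynu encodes kynureninase, which cleaves kynurenines in the breakdown of tryptophan, and had 1.55, 1.58, 1.70, 1.73 and 1.89 CPM in the CSAA+CGA rats, against 1.25, 1.05, 1.05, 1.19 and 1.1 CPM in the CSAA rats. All CSAA+CGA rats were above all CSAA rats, with a log2 fold change of 0.58 (SE 0.23, unadjusted p = 0.0187). The zinc importer gene Slc39a10 had 8.43 to 9.33 CPM in CSAA+CGA rats and 7.11 to 8.14 CPM in CSAA rats. Ergic3, whose product cycles between the endoplasmic reticulum and the Golgi, had 8.34 to 9.45 CPM and 6.70 to 7.53 CPM in the same order of diets. Neither pair of ranges overlapped, and the log2 fold changes were 0.25 (SE 0.10) for Slc39a10 and 0.28 (SE 0.12) for Ergic3. Cfap44, a cilia and flagella protein gene, also did not overlap (1.19 to 1.92 CPM with CGA, 1.00 to 1.17 CPM without; 0.54, SE 0.22).

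The other genes of that direction overlapped between diets. Naa20, the catalytic subunit of an N-terminal acetyltransferase, averaged 4.92 ± 0.415 CPM with CGA and 3.95 ± 0.542 CPM without (SD, n = 5 each; log2 fold change 0.32, SE 0.12). Fam3c, a secreted cytokine-like protein gene, averaged 7.11 ± 0.461 CPM and 5.83 ± 0.843 CPM in CSAA+CGA and CSAA rats. The mitochondrial ribosomal protein gene mrpl24 had the smallest fold change of the 12, 0.17 (SE 0.07), from 5.46 to 6.46 CPM with CGA and 5.20 to 5.52 CPM without. Zcchc9, Slx4ip, Rbak and Izumo4 had log2 fold changes of 0.30, 0.40, 0.28 and 0.50.

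Among the genes lower with CGA, Jazf1 had the lowest p of all genes tested (0.00095). Jazf1, a zinc finger regulator of transcription, had 1.71, 1.58, 1.97, 2.27 and 1.87 CPM in CSAA+CGA rats, against 2.35, 2.73, 3.03, 3.24 and 2.54 CPM in CSAA rats. The highest CSAA+CGA rat lay just under the lowest CSAA rat, and the log2 fold change was -0.56 (SE 0.14, 95% interval -0.87 to -0.26, adjusted p 0.99986). Tor2a, of the torsin family of ATPases, had 2.62, 2.77, 2.54, 1.98 and 2.73 CPM with CGA and 3.87, 3.92, 3.35, 2.93 and 2.95 CPM without. These ranges were separate too (-0.43, SE 0.12, unadjusted p = 0.00157). Kctd11, which encodes an adaptor of a Cullin-3 ubiquitin ligase, also did not overlap, at 1.08 to 1.83 CPM with CGA and 1.84 to 2.18 CPM without (-0.41, SE 0.17). Its nearest rats of the 2 diets, at 1.83 and 1.84 CPM, nearly touched.

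Several of the remaining genes encode enzymes or proteins of lipid metabolism, which was seen only after their values were known. Mecr, the enoyl reductase of mitochondrial fatty acid synthesis, averaged 0.893 ± 0.161 CPM in CSAA+CGA rats and 1.37 ± 0.383 CPM in CSAA rats (-0.61, SE 0.22). Tecr, the enoyl reductase of very-long-chain fatty acid elongation, averaged 4.91 ± 0.742 CPM and 6.19 ± 1.23 CPM in the same order (-0.34, SE 0.14). Fitm2, needed for lipid droplet formation, had 2.75, 1.27, 1.05, 1.76 and 1.42 CPM with CGA and 2.54, 3.57, 1.37, 1.51 and 6.59 CPM without. CSAA Rat5 alone held the top of that range, and without it the log2 fold change of Fitm2 was -0.45 in place of -0.92. Krtcap2, a subunit of the oligosaccharyltransferase that glycosylates proteins, averaged 2.40 ± 0.223 CPM and 3.10 ± 0.314 CPM in CSAA+CGA and CSAA rats, and Pkia, an inhibitor of protein kinase A, had 0.962 to 2.49 CPM and 2.15 to 3.19 CPM. Ccdc61, Slc10a7, Agbl3 and Ncald had log2 fold changes of -0.39, -0.27, -0.40 and -0.44.

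**Figure D3:**
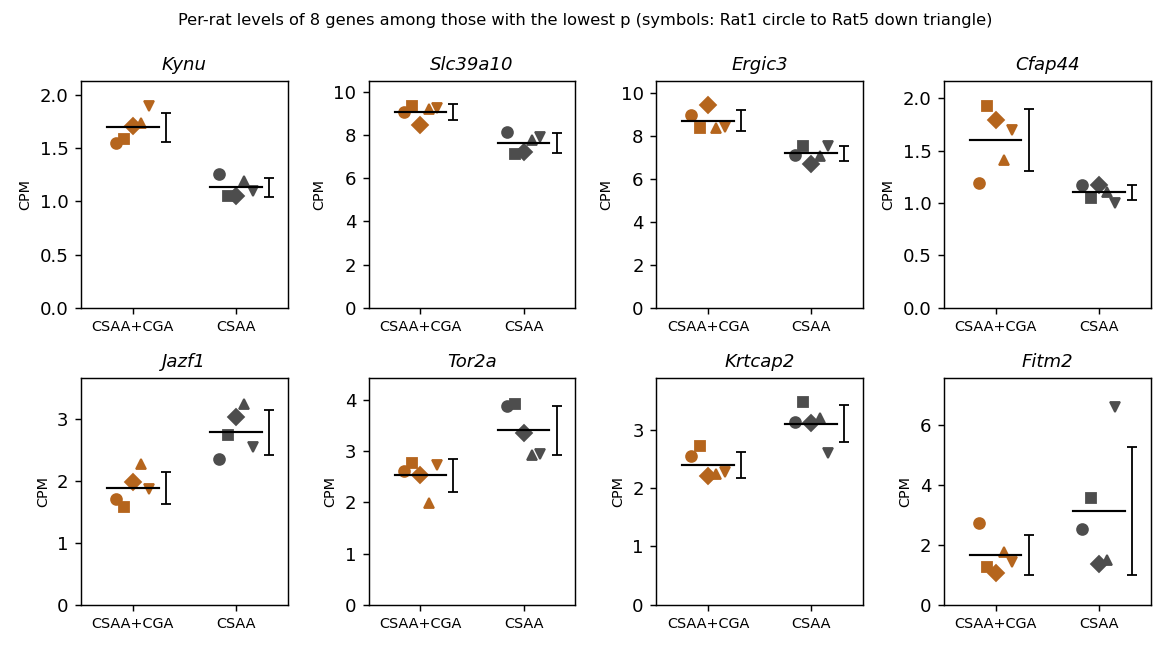
CPM of 8 genes in each rat (vertical axes, from 0), CSAA+CGA left and CSAA right, with a line at the mean and a bar for the SD of 5 rats. The diets do not overlap for Kynu, Slc39a10, Ergic3, Cfap44, Jazf1 and Tor2a, while for Fitm2 the CSAA mean rests on Rat5 at 6.59 CPM.

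Large fold changes of 2 abundant transcripts came from a single rat. AABR07000398.1 and AABR07015081.2, which the files give no gene name, had log2 fold changes of -2.61 (unadjusted p = 0.00906) and -2.32 (unadjusted p = 0.0100). AABR07000398.1 had 356 to 564 CPM in the CSAA+CGA rats, and 10391, 389, 350, 1148 and 500 CPM in CSAA Rat1 to Rat5. AABR07015081.2 had 190 to 645 CPM with CGA and 9307 CPM in CSAA Rat1, with 365 to 879 CPM in the other CSAA rats. Both differences thus rested on CSAA Rat1. Rn5-8s, the 5.8S ribosomal RNA, had 17.6 to 44.6 CPM with CGA and 16.1 to 103 CPM without (-1.13, SE 0.79, unadjusted p = 0.170).

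Red cell transcripts were compared next, since hemoglobin genes alone held 11.9% of the counts with CGA and 13.6% without, on average. All 7 hemoglobin genes tested had a log2 fold change below 0, with a median of -0.13 against -0.01 over all genes, and 0 had an unadjusted p under 0.05. Hbb, the beta chain of adult hemoglobin, had 43269, 42907, 41685, 54662 and 16580 CPM in CSAA+CGA rats, against 56896, 63427, 69599, 31422 and 38771 CPM in CSAA rats. The ranges overlapped, CSAA+CGA Rat5 was the lowest of all, and the log2 fold change of Hbb was -0.39 (SE 0.48) with that rat and -0.19 without it. Without that rat the median of the list was 0.02, with Hba-a1 at 0.16 and Hba-a2 at 0.04. Hba-a1, an alpha chain gene, averaged 21055 ± 8457 CPM with CGA and 21762 ± 4376 CPM without (-0.05, SE 0.35). Globin genes are near-identical copies, so reads may be split between them. In a mixture such as blood, fewer cells of a type and less RNA per cell cannot be told apart.

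The other red cell lists had medians of -0.06 to -0.12. Of 23 genes of the red cell membrane and of maturation, 2 were above 0 and 21 below, with a median of -0.07 and all 23 intervals within 2-fold. The 14 genes of heme synthesis had 5 above 0 and 9 below (median -0.06). Alas2, the red cell enzyme that starts heme synthesis, had 16653 ± 3092 CPM in CSAA+CGA rats and 17634 ± 3426 CPM in CSAA rats (-0.08, SE 0.27). Its housekeeping counterpart Alas1 had 3.05 to 13.4 CPM and 4.52 to 34.9 CPM, and the highest rat was CSAA Rat5. Of 13 iron-handling genes, 4 were above 0 and 9 below (median -0.12). Ftl1, the ferritin light chain, averaged 1020 ± 211 CPM with CGA and 1355 ± 155 CPM without (-0.41, SE 0.24, unadjusted p = 0.104), and the ranges overlapped.

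Platelet and leukocyte markers gave the following counts. Of 23 platelet genes, 3 were above 0 and 20 below (median -0.17). Gp1ba, a chain of the receptor for von Willebrand factor, had 10.5 to 20.0 CPM with CGA and 17.4 to 31.4 CPM without (-0.36, SE 0.20). Tbxas1, the thromboxane synthase, was among the 3 above 0, at 3.54 ± 0.687 CPM with CGA and 2.81 ± 0.183 CPM without (0.33, SE 0.15, unadjusted p = 0.0391). Its ranges overlapped between diets, and the largest log2 fold change of the list, 1.09, was that of another gene. Pf4, platelet factor 4, was at 487 ± 169 and 478 ± 96.4 CPM. Of 16 neutrophil genes, 4 were above 0 and 12 below (median -0.22), and S100a9, a calcium-binding alarmin of neutrophils and monocytes, had 250 to 467 CPM with CGA and 288 to 598 CPM without (-0.31, SE 0.24). The 20 monocyte and macrophage genes divided evenly, with 10 on either side (median -0.01). The 26 T cell genes had a median of 0.02, and all 26 intervals lay within 2-fold.

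B cell genes were mostly above 0. Of 21 tested, 20 lay above 0 (median 0.18), and 0 had an unadjusted p under 0.05. Their summed level was 371, 476, 442, 427 and 394 CPM in CSAA+CGA rats and 445, 384, 331, 362 and 372 CPM in CSAA rats, so the groups overlapped. Genes of 1 cell type can move together with its share of the blood, so they are not independent readings. The same holds for the red cell and platelet lists. Pou2af1, a transcriptional coactivator of B cells, had 14.9 to 20.4 CPM with CGA and 12.4 to 18.2 CPM without (0.30, SE 0.17, unadjusted p = 0.0981). Ms4a1, which encodes CD20, averaged 25.0 ± 3.69 CPM and 21.0 ± 1.96 CPM in the same order (0.25, SE 0.20). Ighm, the constant part of the IgM heavy chain, was at 0.10 (SE 0.16). Set beside the other diets, which share the same CSAA rats, the B cell median was 0.18 with CGA, -0.24 with RSV and -0.09 with PTS. The 14 genes of eosinophils, basophils and mast cells had 8 above 0 (median 0.05). Of 19 genes of natural killer and cytotoxic cells, 5 were above 0 (median -0.13, and 0.03 without CSAA Rat1). Ccl4, a chemokine, did not overlap at 0.692 to 1.06 CPM with CGA and 1.09 to 1.53 CPM without (-0.51, SE 0.31, unadjusted p = 0.116).

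**Figure D4:**
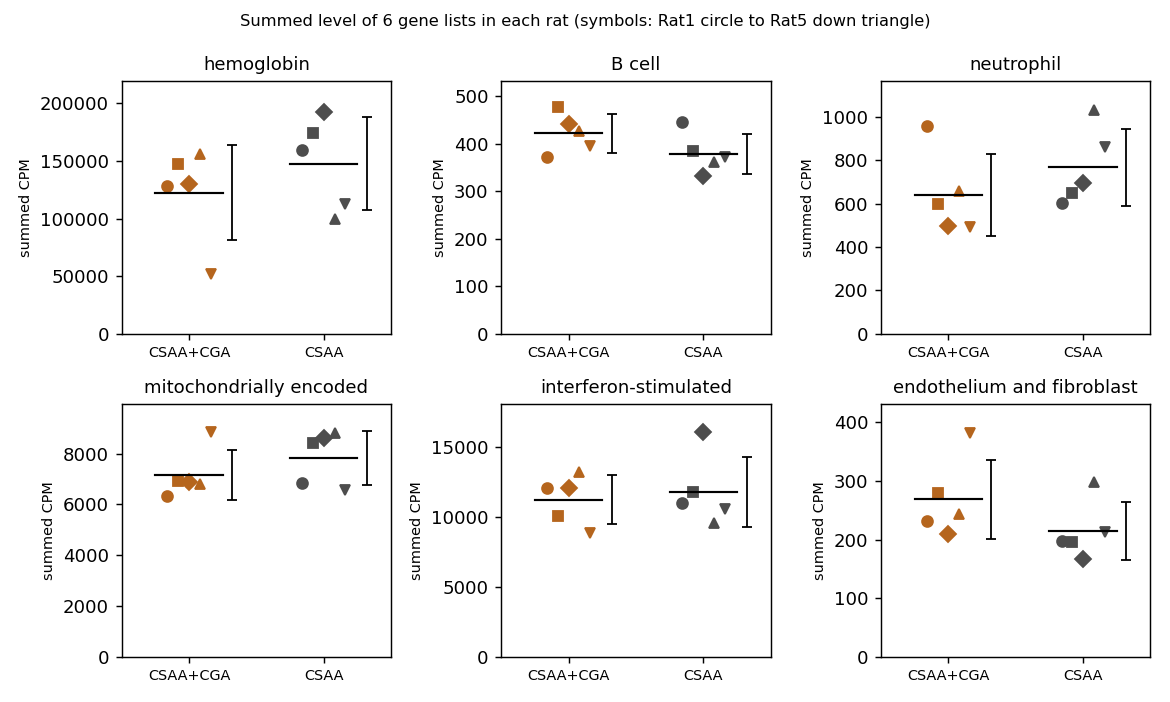
Summed CPM of 6 gene lists in each rat (vertical axes, from 0), CSAA+CGA left and CSAA right, with a line at the mean and a bar for the SD of 5 rats. The diets overlap in all 6, and CSAA+CGA Rat5 is the lowest for hemoglobin and the highest for endothelium and fibroblast genes.

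The Nrf2 program was the first pathway of interest for a dietary polyphenol. Nrf2 binds antioxidant response elements in the promoters of genes for glutathione synthesis and detoxification and is held back by Keap1. Of 27 genes of this program, 8 were above 0 and 19 below, with a median of -0.06 and 23 intervals within 2-fold. None had an unadjusted p under 0.05. Nqo1, the classical quinone reductase of the program, averaged 3.10 ± 1.12 CPM in CSAA+CGA rats and 3.03 ± 0.318 CPM in CSAA rats (0.03, SE 0.21). Hmox1, heme oxygenase 1, averaged 3.12 ± 0.483 CPM and 3.51 ± 0.790 CPM (-0.17, SE 0.24), and Gclc, the catalytic subunit of glutathione synthesis, 9.62 to 12.3 CPM and 9.54 to 11.6 CPM (0.01, SE 0.10). Keap1 had 10.5 to 11.7 CPM with CGA and 9.23 to 10.9 CPM without (0.15, SE 0.09, unadjusted p = 0.0985). Akr1b8, an aldo-keto reductase, had the highest fold change of the list, 0.66 (SE 0.37), from 1.00, 1.16, 0.718, 3.56 and 1.94 CPM with CGA and 1.02 to 1.14 CPM without. Rat4 and Rat5 of the CSAA+CGA diet were the high ones. Of 19 genes of reactive oxygen defense outside the Nrf2 list, 7 were above 0 (median -0.02), and all 19 intervals lay within 2-fold.

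To show what sits before the Nrf2 genes, the 250 bases upstream of each start in RefSeq promoters (build GRCr8) were searched on both strands for the core of the antioxidant response element, TGACNNNGC. It was found in 10.1% of 33469 promoters and in 4 of the 23 Nrf2 genes that matched a promoter by symbol (Gclm, Me1, Gstp1 and Prdx1). The 3 most abundant of them are printed with the match in capitals. Each is read along the strand of the gene, so that a match on the other strand shows as GCNNNGTCA.
Gclm, chr2:213031933-213032001: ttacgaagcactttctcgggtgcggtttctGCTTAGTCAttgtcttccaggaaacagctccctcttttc
Gstp1, chr1:210769728-210769796: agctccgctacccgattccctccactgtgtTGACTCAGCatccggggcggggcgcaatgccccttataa
Me1, chr8:96540373-96540441: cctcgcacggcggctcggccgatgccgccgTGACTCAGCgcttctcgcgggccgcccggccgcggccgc
Gclm lies on the plus strand, and Gstp1 and Me1 on the minus strand. Gclm, the modifier subunit of glutathione synthesis, averaged 292 ± 66.5 CPM in CSAA+CGA rats and 304 ± 87.5 CPM in CSAA rats (-0.06, SE 0.23). Gstp1, a glutathione transferase, had 15.7 to 31.8 CPM and 21.1 to 33.2 CPM (-0.26, SE 0.27), and Me1, the cytosolic malic enzyme, 9.87 to 27.4 CPM and 19.3 to 46.4 CPM (-0.46, SE 0.27). All 4 genes with the match had a log2 fold change below 0 (median -0.16), and all overlapped between diets. The median of the 1202 tested genes with the match was -0.02, beside -0.01 for the 9599 tested genes matched to a promoter.

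Genes that handle phenolic acids were compared next. Of 21 such genes, 10 were above 0 and 11 below (median -0.07), with 11 intervals within 2-fold. Ahr, the aryl hydrocarbon receptor, had 4.91, 5.80, 4.75, 4.63 and 4.74 CPM in CSAA+CGA rats and 4.23, 3.96, 3.27, 4.37 and 4.43 CPM in CSAA rats. All CSAA+CGA rats were above all CSAA rats by a narrow margin, with a log2 fold change of 0.29 (SE 0.20, unadjusted p = 0.162). Nat2, an N-acetyltransferase, averaged 1.49 ± 0.228 CPM and 1.20 ± 0.321 CPM (0.33, SE 0.19). Slc16a1, a transporter of monocarboxylic acids, averaged 26.9 ± 3.62 CPM and 28.2 ± 7.10 CPM (-0.07, SE 0.20). Bche, butyrylcholinesterase, had the lowest fold change of the list, -1.88 (SE 1.16), and without CSAA Rat5 it was 0.29.

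Metabolic targets gave small medians and a few large single values. Of 30 genes of AMPK and fatty acid oxidation, 7 were above 0 and 23 below (median -0.08). Prkaa1, a catalytic subunit of AMPK, had 17.5 to 21.1 CPM with CGA and 18.1 to 22.1 CPM without (-0.04, SE 0.08), and Cpt1a, which lets fatty acids into mitochondria, 21.0 ± 2.86 CPM and 24.1 ± 2.97 CPM (-0.20, SE 0.14). Of 28 genes of glucose uptake and glycolysis, 3 were above 0 and 25 below (median -0.05), and 27 intervals lay within 2-fold. Of 28 genes of cholesterol and lipid transfer, 10 were above 0 and 18 below (median -0.03). Plin2, a lipid droplet coat protein gene, had 38.9, 22.4, 16, 24.5 and 21.0 CPM with CGA and 24.8, 34.9, 24.0, 35.0 and 68.7 CPM without (-0.61, SE 0.28, unadjusted p = 0.0405), and without CSAA Rat5 its log2 fold change was -0.27. Fasn, the fatty acid synthase, had 68.2, 23.6, 16.1, 33.8 and 12.4 CPM with CGA and 32.6, 91.1, 20.1, 13.1 and 236 CPM without. Rats of both diets were high and low, and the log2 fold change of Fasn was -1.35 (SE 0.70) with CSAA Rat5 and -0.35 without it.

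The interferon program had narrow intervals and a median near 0. Of 46 interferon-stimulated genes, 21 were above 0 and 25 below, with a median of -0.01, and all 46 intervals lay within 2-fold. The same genes had a median of 0.05 with RSV and -0.43 with PTS against the same CSAA rats. The interferon-stimulated response element, searched on both strands as GAAA and GAAA with any 2 bases between them, was in 3.41% of all promoters and in 19 of the 32 interferon-stimulated genes matched to one. The 2 most abundant of these carry it on the other strand, where it reads TTTC and TTTC around 2 bases, in capitals here (both genes on the minus strand, GRCr8).
Rsad2, chr6:48788228-48788297: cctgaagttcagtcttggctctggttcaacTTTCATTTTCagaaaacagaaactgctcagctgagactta
Irf7, chr1:205800053-205800122: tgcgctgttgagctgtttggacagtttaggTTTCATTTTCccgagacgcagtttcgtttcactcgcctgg
Rsad2, which encodes the antiviral enzyme viperin, had 8267, 6491, 8560, 9356 and 5981 CPM in CSAA+CGA rats and 7680, 8219, 12370, 5568 and 6982 CPM in CSAA rats (-0.08, SE 0.27). Irf7, a transcription factor of the interferon response, had 807 to 1292 CPM and 987 to 1326 CPM (-0.13, SE 0.24). The groups overlapped for both, and the 19 genes with the element had a median of -0.04, 8 of them above 0.

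Of 32 genes of NF-kB signaling and inflammatory cytokines, 18 were above 0 and 14 below (median 0.03). Il1b, interleukin 1 beta, had 38.0 to 89.4 CPM in CSAA+CGA rats and 59.5 to 83.6 CPM in CSAA rats (-0.18, SE 0.22), and Tnf had 0.957 to 1.97 CPM and 1.05 to 1.95 CPM (-0.07, SE 0.36). Icam1, a leukocyte adhesion molecule, had 2.42 to 3.48 CPM with CGA and 1.29 to 2.78 CPM without (0.35, SE 0.18, unadjusted p = 0.0608). Genes of alternative activation had a median of 0.03 over 14 genes.

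Regulatory and housekeeping programs gave medians between -0.10 and 0.02. Of 16 glucocorticoid-responsive genes, 4 were above 0 and 12 below (median -0.10), with Tsc22d3 at 94.2 ± 26.1 CPM with CGA and 103 ± 12.5 CPM without. The medians were 0.01 for 24 immediate early genes, -0.06 for 15 clock genes, -0.01 for 30 chaperones and -0.03 for 24 genes of the integrated stress response. Autophagy genes had 7 above 0 and 21 below (median -0.06), and all 28 intervals lay within 2-fold. Genes of sirtuins and NAD metabolism had a median of 0.00 over 22 genes, and Sirt2, the cytosolic deacetylase of this family, was at 567 ± 75.5 and 553 ± 50.3 CPM. DNA methylation genes had a median of 0.02 over 20 genes. Dnmt1, the maintenance methyltransferase, averaged 23.7 ± 1.69 CPM with CGA and 24.0 ± 1.70 CPM without, with a 95% interval of -0.18 to 0.15 on the log2 scale. Of 33 cell cycle genes, 11 were above 0, and Mcm5, a subunit of the replicative helicase, had 2.80 to 3.78 CPM with CGA and 2.42 to 2.89 CPM without (0.30, SE 0.13, unadjusted p = 0.0283).

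Translation and respiration were examined as the 2 largest housekeeping groups. Of 81 cytosolic ribosomal protein genes, 13 were above 0 and 68 below, with a median of -0.07 and 80 intervals within 2-fold. Rps16, of the small subunit, had the lowest fold change of them, -0.63 (SE 0.53), at 122 to 224 CPM in CSAA+CGA rats and 168 to 329 CPM in CSAA rats. The 73 nuclear-encoded genes of oxidative phosphorylation had a median of -0.01 and all 73 intervals within 2-fold. The 13 mitochondrially encoded genes were all below 0, with a median of -0.31, and 0 had an unadjusted p under 0.05. Mt-nd4, a subunit of complex I, had 58.9, 76.8, 54.5, 58.4 and 93.2 CPM with CGA and 71.2, 97.2, 78.0, 129 and 92.5 CPM without (-0.45, SE 0.34, unadjusted p = 0.195). The summed level of the 13 genes was 7162 ± 972 CPM with CGA and 7843 ± 1065 CPM without. Mt-co1 alone averaged 5192 CPM with CGA and 5494 CPM without. The highest sum was that of CSAA+CGA Rat5 at 8850 CPM, just above CSAA Rat4 at 8822 CPM. In mean log2(CPM + 1) over the 13 genes CSAA Rat4 was the highest (7.17), ahead of CSAA+CGA Rat5 (7.05). Transcripts of 1 mitochondrial genome share a source and are not independent readings.

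Markers of tissues other than blood were checked in the same way. Of 21 endothelium and fibroblast genes, 16 were above 0 (median 0.37), and their summed level was 210 to 381 CPM in CSAA+CGA rats and 167 to 298 CPM in CSAA rats. Fn1 made up most of that sum, with a mean of 209 CPM with CGA and 185 CPM without. Among CSAA+CGA rats Fn1 was lowest in Rat5, at 160 CPM. The high values of Dcn and Lum came from 1 rat. Dcn, the matrix protein decorin, had 0.517, 1.05, 0.987, 0.346 and 23.3 CPM with CGA and 0.0783 to 1.68 CPM without, for a log2 fold change of 2.23 (SE 0.99, unadjusted p = 0.0371). Without CSAA+CGA Rat5 it was -0.62. Lum, the related proteoglycan lumican, had 1.89 with that rat and -0.18 without it, and Cxcl1, a chemokine, had 7.0 CPM in CSAA+CGA Rat5 and at most 0.596 CPM in the other 9 rats. Leaving out Rat5 of every diet turned the median of the list to -0.16. What these markers contributed to other values of that rat was not tested. Skeletal muscle and skin genes had a median of 0.02 over 12 genes, but their summed level varied widely between rats within both diets. It ran from 9.69 CPM in CSAA+CGA Rat4 to 74.3 CPM in CSAA Rat5. It was 68.2 and 49.4 CPM in CSAA+CGA Rat2 and Rat5, and 29.5 and 20.1 CPM in CSAA Rat2 and Rat4. The keratin gene Krt15 had 0.252 CPM in CSAA+CGA Rat4 and 28.6 CPM in CSAA Rat5. What skin added to other values of these rats was not tested. Olfactory and vomeronasal receptors, which blood cells hardly use, had a median of 0.10 over 29 genes (-0.14 without CSAA+CGA Rat5).

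**Figure D5:**
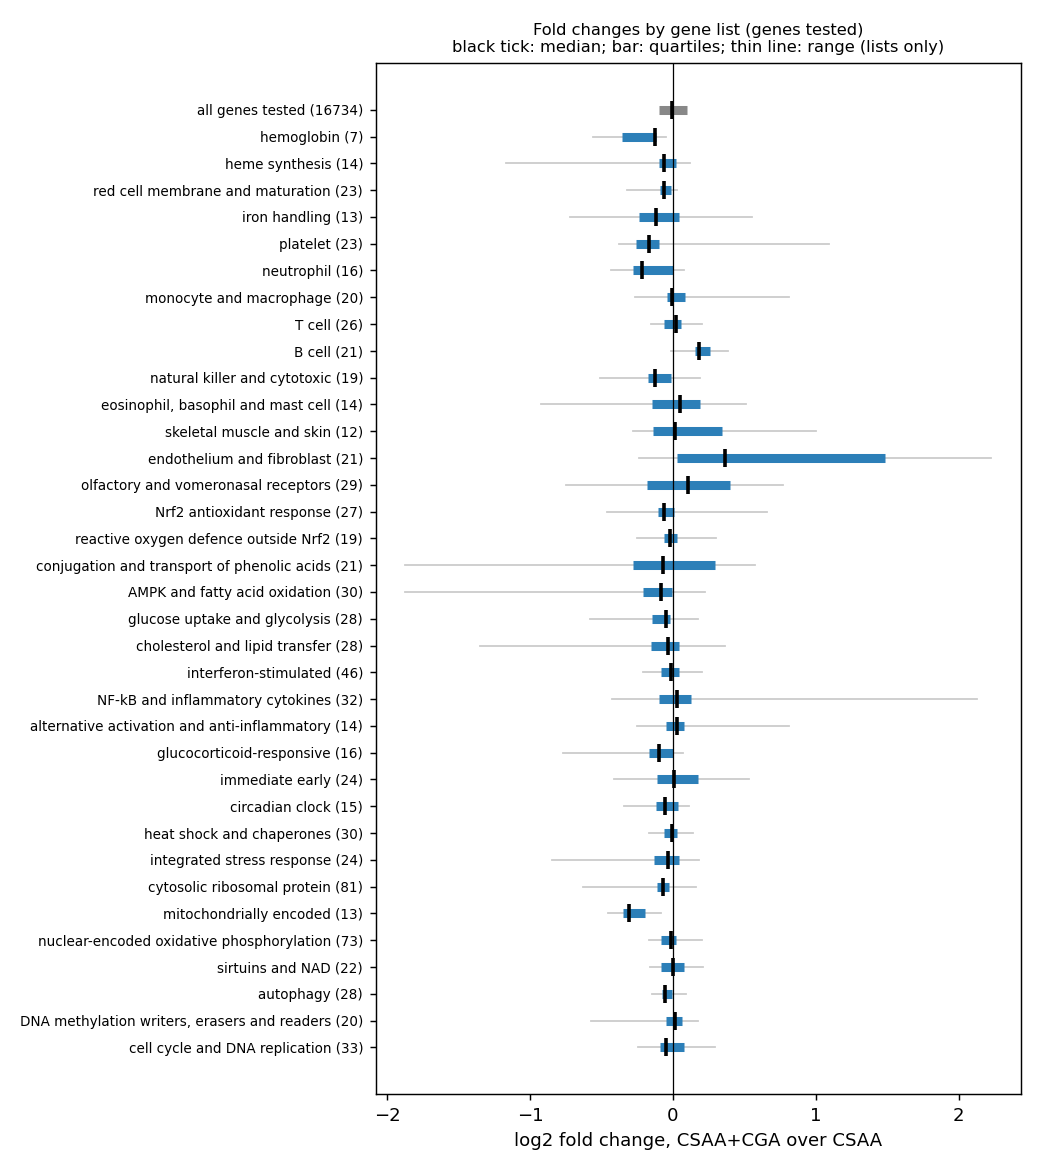
Log2 fold change of CSAA+CGA over CSAA (horizontal axis) by gene list, with the number of genes tested in brackets, the median as a black tick, the quartiles as a bar and the range of each list as a thin line. Medians run from -0.31 for mitochondrially encoded genes to 0.37 for endothelium and fibroblast genes, beside -0.01 for all genes tested.

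Normalization shifted these small medians. With library totals in place of TMM scaling the median of all genes was 0.07, and 16 of the 35 list medians changed sign, among them those of heme synthesis, the red cell membrane, Nrf2, phenolic acid handling, glycolysis, interferon-stimulated genes, ribosomal proteins, autophagy and the cell cycle. Those of hemoglobin, platelet, neutrophil, B cell and mitochondrially encoded genes kept their sign.

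Beside the hemoglobin genes given above, other abundant classes were compared. Small noncoding RNAs of the signal recognition particle and 7SK classes held 27.8 ± 3.99% of the counts with CGA and 25.3 ± 1.67% without (SD, n = 5 each). Ribosomal protein genes held 2.98 ± 0.374% and 2.98 ± 0.198%, and mitochondrial genes 0.719 ± 0.180% and 0.738 ± 0.131%. Ncoa4, the receptor that sends ferritin to autophagy, averaged 9585 ± 1531 CPM in CSAA+CGA rats and 10429 ± 3269 CPM in CSAA rats (-0.12, SE 0.27). Ucp2, a mitochondrial carrier, had 394 CPM in CSAA+CGA Rat5 and 953 to 1847 CPM in the other 9 rats, and Cdc25b, a phosphatase of the cell cycle, had 1234 CPM in that rat and 2886 to 4497 CPM elsewhere.

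For the genes with the lowest p, values with the other compounds stand beside those with CGA, all against the same 5 CSAA rats. Jazf1 had log2 fold changes of -0.56 with CGA, -0.43 with RSV and -0.35 with PTS. Kynu had 0.58 with CGA, 0.16 with RSV and 0.59 with PTS, and Tor2a had -0.43, -0.13 and -0.33. Hemoglobin genes had medians of -0.13 with CGA, -0.82 with RSV and -1.13 with PTS. Since the CSAA rats enter all 3 comparisons, like signs are not separate evidence, and differences between compounds were not tested here.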

How the data were processed

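The authors deposited whole-number read counts per Ensembl gene. Per the labels and methods they trimmed reads with Trimmomatic 0.32, checked them with FastQC 0.11, aligned them to rn6 with TopHat2 2.1, counted with Rsubread and compared diets with DESeq2 1.30. The kit marked strand, but the strand setting of the counter and the lane of each rat were not given in the sources used here, so overlapping genes may share counts.

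Here counts of 19 libraries (CSAA+RSV Rat4 left out, as the authors did) were fitted with edgeR 4.0.16 under R 4.3.3 (TMM scaling, quasi-likelihood test, diet as the only term, two-sided, Benjamini-Hochberg over 16734 genes, threshold 0.05). The code was tested on simulated data. limma 3.58.1 and DESeq2 1.42.0 were alternatives. SE and 95% intervals come from the same fit.

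Members and the 35 gene lists were chosen with earlier results of these data known. Genes named: the 12 lowest p per direction with a usual symbol (no clone, LOC or RGD name) and a mean of at least 1 CPM. Up to 3 members of each list (the 2 lowest p and the most abundant) and the 10 most abundant genes were named too. Textbook members of lists, and genes introduced as single-rat cases, were added after their values were seen. Some genes that the rule names are not reported here. Of the genes tested, 198 had counts identical to another gene in all 20 libraries, and 566 had a symbol held by several IDs.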

Additional observations from a re-analysis of the deposited data

Results flagged for a closer look

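Within each diet, 128 groups of 5 rats were screened for a rat whose gap to its nearest neighbor took more than 0.71 of the range (Dixon's critical value for 5), and 11 had one. For independent, normally distributed values chance gives about 1 in 20. The groups here overlap in their genes and include genes picked by p, so the count cannot be judged against that rate.

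CSAA+CGA Rat5 stood apart in 3 measures. It had 28014 genes with at least 1 count, with the next rat of the diet at 21887 (gap 0.804 of the range). It had 51642 CPM of hemoglobin genes, with the next at 128350 CPM (0.738), and 8850 CPM of mitochondrially encoded genes, with the next at 6925 CPM (0.770). As shares of the total counts, without TMM scaling, neither class was flagged in that rat. Its hemoglobin share was 5.93% (next 11.8%), and its mitochondrial share was 1.02% (next 0.763%). CSAA+CGA Rat1 was the highest for genes of phenolic acid handling (133 CPM, next 112 CPM, gap 0.774), and CSAA Rat5 was so among CSAA rats (170 CPM, next 120 CPM, gap 0.819). CSAA Rat5 was also the highest for cell cycle genes in summed level (4974 CPM, next 3865 CPM, gap 0.826). Of that sum Cdc25b alone held 4246 CPM, and in mean log2(CPM + 1) over the list CSAA Rat5 (3.50) was below CSAA Rat1 to Rat3 (3.56 to 3.65).

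CSAA Rat4 had the highest summed level of monocyte genes among CSAA rats (2147 CPM, next 1464 CPM, gap 0.783). The same held for eosinophil, basophil and mast cell genes (67.1 CPM, next 49.0 CPM, gap 0.796) and for immediate early genes (303 CPM, next 247 CPM, gap 0.756). Lyz2 alone held 1699 CPM of the monocyte sum, and Siglec5 held 50.4 CPM of the eosinophil, basophil and mast cell sum. In mean log2(CPM + 1) CSAA Rat4 had 3.91 for the monocyte list (next 3.78) and 1.35 for the eosinophil, basophil and mast cell list (next 1.28). Among the named genes, Slc39a10 was lowest in CSAA+CGA Rat3 among rats of that diet (8.43 CPM, next 9.07 CPM, gap 0.713), and Rbak was highest in CSAA Rat3 among CSAA rats (3.11 CPM, next 2.66 CPM, gap 0.740).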

How the results depend on the processing

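No gene had an adjusted p under 0.05 in any of the 26 alternative fits run with edgeR, DESeq2 or limma, where the lowest adjusted p was 0.0756. The share of genes at an unadjusted p under 0.05, 0.639% (107) in the fit reported, was 1.47% (246) with the CSAA+CGA and CSAA libraries alone, 1.15% (193) with DESeq2 on those libraries, 4.44% (743) with limma's sample weights, 0.983% (311 of 31628) with no filter on low counts, 0.239% (40) with library totals in place of TMM and 1.51% (119 higher, 133 lower) without the fifth rat of every diet, where 51 were among the 107. Leaving out 1 rat at a time gave 0.496% (83) to 1.30% (217), the highest without CSAA+CGA Rat1. The share of such genes that were higher with CGA was 51.4% in the fit reported, 70% with library totals (28 of 40, median log2 fold change 0.07 over all genes), 64.0% with no filter and 33.7% with DESeq2 on the 2 diets. With library totals, 4 genes were lower in every CSAA+CGA rat in place of 14. The exact permutation p of the total counts was 0.114 without the fifth rats. Rats with the same number correlated at 0.12, 0.02, 0.43, -0.09 and 0.46 in their deviations from the diet means, so the numbers were not taken to pair rats, and only CSAA+CGA Rat3 and Rat5 correlated best with their own number. With the rat number as a block the share was 1.08% (181) over 19 libraries, 1.91% (319) over the 2 diets and, chosen after seeing the data, 1.94% (324) without the fifth rats. Of 134 named genes, 36 changed sign in some alternative, none of them among the 24 with the lowest p. Of 35 list medians, 29 did.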

Other observations

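The following groups were put together after their values were seen, so they carry no test. Of fatty acid synthesis and lipid droplet genes, Fasn, Acacb, Acaca, Acly, Scd, Thrsp, Cidea, Plin2 and Fitm2 were highest in CSAA Rat5, as were Alas1 of heme synthesis and Aco1, an aconitase that also regulates iron handling. They were picked for that pattern, and their log2 fold changes of CSAA+CGA over CSAA ran from -1.87 (Acacb) to -0.34 (Acaca). In 10 of these 11 genes the 3 highest rats were CSAA Rat5, CSAA Rat2 and CSAA+CGA Rat1. Thrsp, a regulator of fatty acid synthesis, had 24.2, 1.13, 0.269, 6.80 and 0.639 CPM in CSAA+CGA rats, against 5.52, 26.0, 2.79, 0.284 and 81.4 CPM in CSAA rats. The fat cell markers Adipoq, Fabp4, Lipe and Cidec had the same 3 highest rats in 0 of 4. Adipoq and Fabp4 were highest in CSAA Rat5, at 0.785 and 1.26 CPM. Lipe and Cidec were highest in CSAA+CGA Rat5, at 0.540 and 0.639 CPM. CSAA Rat5 was among the 3 highest rats for each marker. These levels were low, at most 1.26 CPM, and whether fat cells added to the lipid genes was not tested.

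Among genes named only by a clone, 90 had a length of 4700 to 5200 bases. CSAA+CGA Rat5 was the highest rat in 80 of them and CSAA Rat5 was next in 79. Their median level was 21.4 CPM in CSAA+CGA Rat5 and 13.1 CPM in CSAA Rat5, and 3.53 to 6.56 CPM in the other 8 rats. Their median log2 fold change of CSAA+CGA over CSAA was 0.41, and 0 had an unadjusted p under 0.05 in edgeR's test.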
